A study of Arabidopsis thaliana with 21 samples.

Results

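NEET5-4 is an Arabidopsis thaliana line named in the labels after AtNEET (AT5G51720), and it is set here against the wild type Col across all measured genes. The comparison takes 6 of the 21 libraries of the series, 3 from NEET5-4 and 3 from Col. All came from complete seedlings that were 7 days old and had grown in liquid culture. The other 15 libraries belong to NEET10-10 and NEET11-9, which carry the same construct name as NEET5-4, and to 3 lines named after H89C. No promoter, tag or site of insertion is named for any line. NEET5-4 is a single line, so a change found in it cannot be told apart from an effect of where its transgene sits or of its genetic background.

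AtNEET belongs to the NEET family, small proteins that hold a 2Fe-2S cluster, an inorganic cofactor of iron and sulfide, and that can pass the cluster on to other proteins. The plant protein has been placed in chloroplasts and mitochondria, and plants with less of it show altered iron homeostasis and signs of early senescence. Iron-sulfur clusters serve photosynthesis, respiration and sulfur assimilation, so their supply is tied to the genes of iron uptake.

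All values below are normalized counts, that is, reads per gene divided by 1 size factor per library. They compare libraries for 1 gene and do not compare genes of different length. A log2 change is NEET5-4 minus Col on the scale log2(normalized count + 1), with its standard error (SE). A gene is called where the Benjamini-Hochberg adjusted p of limma, over 20699 tested genes, is under 0.05. NEET5-4 libraries held 21.52, 19.33 and 19.87 mega (M) reads, and Col libraries held 22.23, 18.77 and 8.24 M. Col replicate 1 stood apart from the other Col libraries, with a chi-square per degree of freedom of 15.39 against replicate 2 and 8.44 against replicate 3, where Col replicates 2 and 3 gave 1.43 and NEET5-4 pairs gave 2.43 to 2.83. Nothing in the labels ties the 3 libraries of a group to separate cultures, so the p-values rest on the spread of libraries within all 7 groups of the fit, 21 libraries in all, which may be only technical. Col had the widest spread of the 7 groups, with a median standard deviation of 0.144 on the log2 scale, against 0.087 in NEET5-4. NEET10-10 came next with 0.121, and its replicate 1 gave a chi-square per degree of freedom of 11.37 and 9.06 against replicates 2 and 3. The SEs pool the spread over all groups, so they can be too small for comparisons with Col or NEET10-10.

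The gene that names the line was far above wild type in every library. AtNEET, on chromosome 5 at chr5:21009347-21010345 of TAIR10.1 on the plus strand, had 18723, 18183 and 17667 in NEET5-4, against 366, 186 and 230.4 in Col. The log2 change was 6.18 ± 0.13 (limma adjusted p = 3.6e-22), or 72.3-fold on the pseudocounted scale. With each library left out in turn it ran from 5.96 to 6.45, wider than the SE. Reads from a transgene and from the native gene would fall on the same gene, so their shares cannot be told apart.

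Between NEET5-4 and Col, 2923 genes were higher (14.1% of those tested) and 3495 lower (16.9%), 6418 in all (31%). Changes of at least 2-fold ran mostly downward, with 201 genes higher (0.971%) and 615 lower (2.97%), 816 in all (3.94%). Without Col replicate 1, 5886 genes were called and 846 of them changed at least 2-fold. With only NEET5-4 and Col fitted, 4295 genes were called and 740 of them changed at least 2-fold. The libraries of NEET5-4 and Col did not overlap in 7946 genes (38.4%). The 15 largest rises and 15 largest falls described next were ranked among 5489 genes (26.5%) that were called, did not overlap and averaged at least 50 in the higher group. Their own fold changes chose them, so those values are a description.

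Many of the largest rises were genes of the cell wall or of the EXORDIUM family. Apart from AtNEET, 8 of the 15 encode xyloglucan endotransglucosylase/hydrolases (XTH25, XTH33, TCH4 and XTH16), an expansin-like protein (EXLA1) or members of the EXORDIUM family (PHI-1, EXO and EXL5). XTH enzymes cut and rejoin xyloglucan, the polymer that tethers cellulose, and expansins loosen walls without cutting them. EXORDIUM family proteins are secreted and are known for brassinosteroid-dependent growth, and TCH4 is a textbook touch-induced gene. A separate list of 17 tested wall genes, given below, moved both ways, with 5 higher and 5 lower. Its largest log2 change was 1.92, that of XTH16, so the genes named here with larger rises are not in it.

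PHI-1, a phosphate-responsive member of the EXORDIUM family, had 1387, 1518 and 1434 in NEET5-4, against 158, 162 and 105 in Col. Every NEET5-4 library was far above every Col library, with a log2 change of 3.37 ± 0.16 (SE, limma adjusted p = 8.33e-15). EXO, the founding member, had 3971, 4342 and 4539 in NEET5-4, against 883, 1135 and 1285 in Col, and its log2 change was 1.97 ± 0.09 (limma adjusted p = 2.37e-15). EXL5 had 4611, 4801 and 4741 in NEET5-4, against 1061, 1468 and 1437 in Col, and its log2 change was 1.85 ± 0.08 (limma adjusted p = 1.43e-15). For all 3 the groups were well apart, and the NEET5-4 libraries lay closer together than the distance to Col.

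Of the xyloglucan enzymes, TCH4 had 7010, 7147 and 7543 in NEET5-4, against 1331, 1444 and 1471 in Col, with a log2 change of 2.35 ± 0.07 (SE, limma adjusted p = 2.7e-18). XTH25 lies next to TCH4 on chromosome 5 and had 515, 456 and 469 in NEET5-4, against 59.9, 63.2 and 80.9 in Col, with a log2 change of 2.81 ± 0.15 (SE, limma adjusted p = 4.16e-14). XTH33 had 106, 104 and 109.7 in NEET5-4, against 21.4, 16.1 and 19.6 in Col, and XTH16 had 3244, 3048 and 3133 in NEET5-4, against 679, 929.8 and 902 in Col. Their log2 changes were 2.43 ± 0.28 (limma adjusted p = 1.3e-07) and 1.92 ± 0.10 (limma adjusted p = 3.01e-14). EXLA1 had 2179, 2217 and 2089 in NEET5-4, against 437, 463 and 439 in Col, with a log2 change of 2.27 ± 0.08 (SE, limma adjusted p = 1.43e-17). No library of one group reached the other in any of these 5 genes.

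The remaining rises were of mixed kind. MRN1, the marneral synthase of a root triterpene cluster, had 145, 150 and 162 in NEET5-4, against 20.6, 23.6 and 24.5 in Col, with a log2 change of 2.68 ± 0.18 (SE, limma adjusted p = 7.79e-12). AT4G37850 encodes a bHLH DNA-binding protein and had 63.6, 71.4 and 59.3 in NEET5-4, against 11.6, 12.8 and 14.7 in Col, a log2 change of 2.23 ± 0.31. AT3G02620, of the stearoyl-acyl-carrier-protein desaturase family, had 197, 265 and 221 in NEET5-4, against 50.1, 38.6 and 56.4 in Col, a log2 change of 2.22 ± 0.16. The MATE efflux family gene AT3G23550, the DUF1005 gene AT1G50040 and ICME-LIKE2 closed the group with log2 changes of 2.21, 2.18 and 1.83. In each of these 6 genes all NEET5-4 libraries were above all Col libraries.

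**Figure D1:**
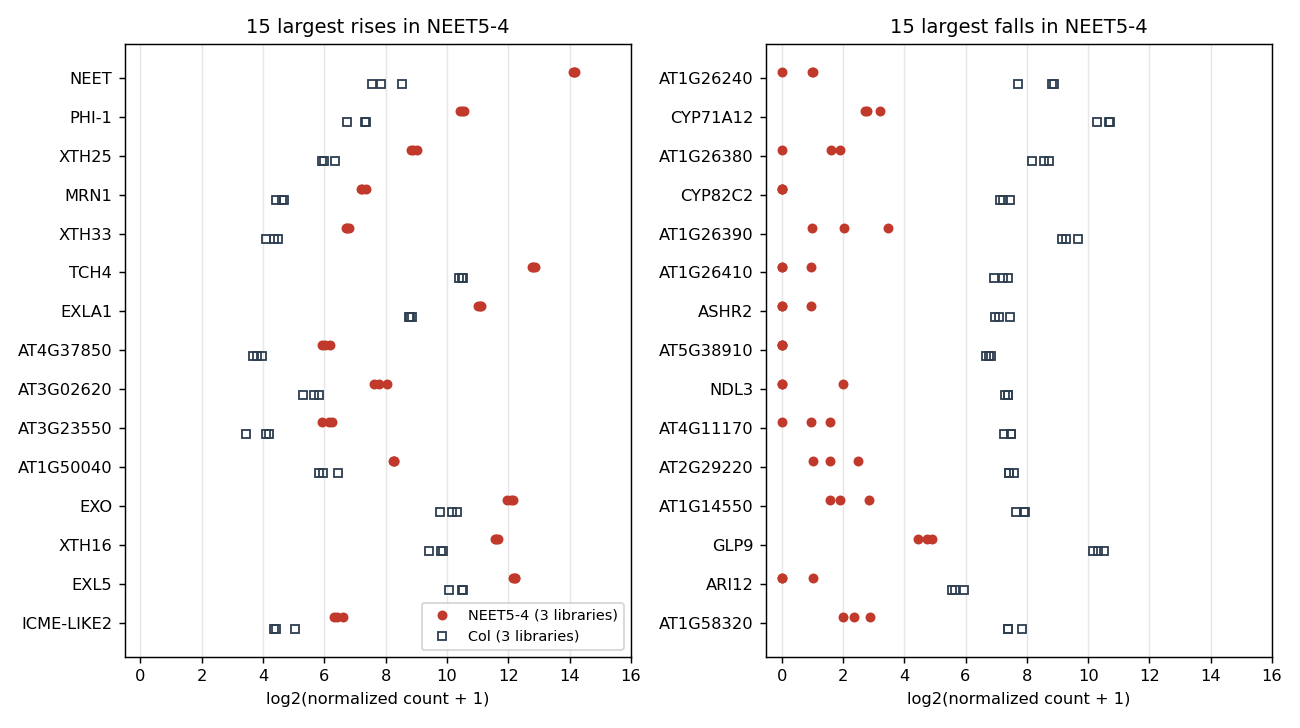
Levels of the 15 largest rises (left) and falls (right) in each library as log2(normalized count + 1), with NEET5-4 as filled circles and Col as open squares. The groups are apart in every gene because the choice required it. Some of the falls, but not all, reach 0 reads in NEET5-4 libraries, where the rises start from measurable levels in Col.

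Most of the falls went down to a few reads or none. Of the 15, CYP71A12, the berberine-bridge-like oxidase AT1G26380 and CYP82C2 act one after another in making 4-hydroxyindole-3-carbonyl nitrile, a pathogen-induced indole compound made from tryptophan. Neighbouring oxidase genes of the same family (AT1G26390 and AT1G26410) fell with them. The rest include a peroxidase, a germin-like protein, a TIR-NBS-LRR resistance protein, a lectin receptor kinase and genes of unknown role.

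CYP71A12 had 5.53, 8.28 and 5.93 in NEET5-4, against 1649, 1240 and 1667 in Col, with a log2 change of -7.65 ± 0.13 (SE, limma adjusted p = 7.47e-24). AT1G26380 had 2.76, 2.07 and 0 in NEET5-4, against 426, 285 and 373 in Col, and CYP82C2 had 0, 0 and 0 in NEET5-4, against 175, 148 and 139.7 in Col. CYP82C2 thus had no read in NEET5-4 and 391 reads in Col, which makes it at least 162-fold lower against a floor of 3 reads over the 3 NEET5-4 libraries (limma adjusted p = 4.36e-18). For AT1G26380 the ratio of Col over NEET5-4 from pooled reads was 223 (95% exact interval 95.1 to 688). These intervals and floors cover counting error only. All 3 genes of the pathway were well measured in every Col library. In NEET5-4, AT1G26380 and CYP82C2 were at or near the floor, and CYP71A12 was low but above it, with 20 reads over the 3 libraries.

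AT1G26380, AT1G26390, AT1G26410 and AT1G26420 form a run of neighbours among tested genes on chromosome 1 at chr1:9126737-9143336, a stretch of 16.6 kb. AT1G26390 had 10.1, 3.1 and 0.988 in NEET5-4, against 816, 560.2 and 623 in Col, a log2 change of -7.20 ± 0.32. AT1G26410 had 0.921, 0 and 0 in NEET5-4, against 165, 120 and 147 in Col, and its pooled ratio of Col over NEET5-4 was 445 (95% exact interval 79.3 to 17612). AT1G26420 had 7.37, 7.24 and 10.9 in NEET5-4, against 119, 105 and 108 in Col, a log2 change of -3.57 ± 0.16 (limma adjusted p = 1.56e-15). These genes are tandem members of one family, and how reads that match more than 1 of them were counted is not given in the sources used here, so their separate values are uncertain. Farther along the chromosome, 3 more genes of the family (AT1G30700, AT1G30720 and AT1G30730) also fell, by 1.25, 1.17 and 2.81 on the log2 scale.

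Outside the indole pathway and the oxidase family, GLP9, a germin-like protein, fell without reaching the floor. It had 25.8, 29 and 20.8 in NEET5-4, against 1152, 1285 and 1461 in Col, a log2 change of -5.64 ± 0.09 (SE, limma adjusted p = 5.91e-24). The peroxidase gene AT1G14550 had 2.76, 6.21 and 1.98 in NEET5-4, against 239.6, 198 and 243 in Col, and AT1G58320, of the PLAC8 family, had 6.45, 4.14 and 2.96 in NEET5-4, against 231, 167 and 167 in Col. AT4G11170, the TIR-NBS-LRR gene, had 0.921, 0 and 1.98 in NEET5-4, against 177, 151 and 179 in Col, a ratio of Col over NEET5-4 of 171 (95% exact interval 58.1 to 833). In each of these the lowest Col library was far above the highest NEET5-4 library. AT2G29220, a lectin receptor kinase gene, had 4.61, 1.03 and 1.98 in NEET5-4, against 189, 168 and 169 in Col, a log2 change of -5.76 ± 0.29. AT5G38910, a cupin gene, had no read in NEET5-4 against 108, 113 and 101 in Col, at least 111-fold lower. AT1G26240, a proline-rich extensin-like gene, had 0, 1.03 and 0.988 in NEET5-4, against 207, 471 and 451 in Col, and the RING/U-box gene ARI12 had 0, 1.03 and 0 in NEET5-4, against 60.8, 49.3 and 46.6 in Col. Their ratios of Col over NEET5-4 were 533 (95% exact interval 147 to 4409) and 166 (95% exact interval 29.2 to 6592). The intervals are wide because NEET5-4 held 2 and 1 reads of them.

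The 250 bases before the annotated start of these genes were searched on both strands for the W-box, the core bound by WRKY factors (TTGACC or TTGACT). It was present in 28.5% of the 20592 tested genes with such a window, in 4 of the 15 rises and in 8 of the 15 falls. CGCGTT, the core of the rapid stress response element, was in 2.75% of the windows, among the rises in those of PHI-1 and EXLA1 and in none of the falls. CACGTG, the G-box, was in 7.45%, in 1 rise (AT4G37850) and in no fall. A match is a description of these letters and not of a bound site. The windows shown were chosen among those that hold a W-box. They come from 4 falls, CYP82C2 and the oxidase genes AT1G26380, AT1G26390 and AT1G26410, and from 2 of the 4 rises with a match. CYP71A12, also among the falls, held no W-box and its window is not shown. Each is read 5′ to 3′ on the gene's strand from the TAIR10.1 genome, with W-boxes of either strand and the CGCGTT match in capitals. They lie at chr4:15462100-15462349 (plus strand), chr1:9128569-9128818, chr1:9131780-9132029 and chr1:9140440-9140689 (minus strand), chr1:12851733-12851982 (plus strand) and chr5:23308681-23308930 (minus strand).
CYP82C2: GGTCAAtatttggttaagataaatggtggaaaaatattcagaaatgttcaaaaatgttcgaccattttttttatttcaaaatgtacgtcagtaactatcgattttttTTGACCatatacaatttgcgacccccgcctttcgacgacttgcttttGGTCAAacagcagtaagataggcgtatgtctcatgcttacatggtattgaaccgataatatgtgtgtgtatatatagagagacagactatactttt
AT1G26380: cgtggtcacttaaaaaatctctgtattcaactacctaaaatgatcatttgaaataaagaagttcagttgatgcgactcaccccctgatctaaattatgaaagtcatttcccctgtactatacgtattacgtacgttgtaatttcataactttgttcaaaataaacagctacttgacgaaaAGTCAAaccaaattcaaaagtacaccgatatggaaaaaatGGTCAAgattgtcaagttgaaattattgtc
AT1G26390: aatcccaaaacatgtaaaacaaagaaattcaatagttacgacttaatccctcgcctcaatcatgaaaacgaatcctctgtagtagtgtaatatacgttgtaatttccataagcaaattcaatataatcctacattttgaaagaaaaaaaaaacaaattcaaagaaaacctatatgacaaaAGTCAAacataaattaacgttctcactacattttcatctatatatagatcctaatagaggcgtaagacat
AT1G26410: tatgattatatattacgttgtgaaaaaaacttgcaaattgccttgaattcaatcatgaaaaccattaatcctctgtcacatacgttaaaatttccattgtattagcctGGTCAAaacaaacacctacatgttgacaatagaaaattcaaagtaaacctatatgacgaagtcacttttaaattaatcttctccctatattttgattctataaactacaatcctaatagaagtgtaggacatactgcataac
PHI-1: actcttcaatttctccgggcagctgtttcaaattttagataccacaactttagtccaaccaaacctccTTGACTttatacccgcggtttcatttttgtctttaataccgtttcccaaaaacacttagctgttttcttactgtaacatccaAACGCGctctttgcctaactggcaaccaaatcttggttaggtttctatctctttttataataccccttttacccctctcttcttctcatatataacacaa
TCH4: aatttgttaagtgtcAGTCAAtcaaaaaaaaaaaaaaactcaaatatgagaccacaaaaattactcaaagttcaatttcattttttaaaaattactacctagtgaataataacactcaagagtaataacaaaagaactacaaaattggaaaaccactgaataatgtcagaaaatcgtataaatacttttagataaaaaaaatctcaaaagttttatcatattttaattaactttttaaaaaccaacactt
CYP82C2 held 3 W-boxes, AT1G26380 held 2, and the other 4 windows held 1 each.

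Among all called genes that changed at least 2-fold, 15 runs of 3 or more neighbouring tested genes moved the same way, and all 15 ran downward. They include the oxidase genes above, CYP71A12 with AT2G30766 and CYP71A13, a trio of cold-response factors, lipid-transfer genes and SAUR genes. By chromosome, 2-fold falls took 2.58% to 3.35% of tested genes and 2-fold rises 0.893% to 1.08%.

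In one run the reads of neighbouring genes nearly vanished in NEET5-4 while all other libraries kept them. On chromosome 2, at chr2:8485991-8495892, NDL3, ASHR2 and AT2G19650 are neighbours among tested genes over 9.9 kb. AT2G19630, between NDL3 and ASHR2, and AT2G07245, within NDL3, had too few reads in any library to be tested. NDL3, an N-MYC downregulated-like gene, had 0, 0 and 2.96 in NEET5-4, against 164, 167 and 154 in Col, and the lowest of the 18 libraries outside NEET5-4 had 87.0. ASHR2, named as an ASH1-related protein, had 0.921, 0 and 0 in NEET5-4, against 123, 134 and 174 in Col, and the lowest of the 18 other libraries had 123. AT2G19650, of the Cys/His-rich C1 domain family, had 13.8, 21.7 and 23.7 in NEET5-4, against 379.9, 494 and 498 in Col, with a log2 change of -4.49 ± 0.15 (SE, limma adjusted p = 6.14e-18), and the lowest of the 18 others had 201.1. The ratios of Col over NEET5-4 from pooled reads were 167 (95% exact interval 56.8 to 815) for NDL3 and 416 (95% exact interval 74.2 to 16480) for ASHR2.

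The nearest tested genes on either side differed from Col by less than 2-fold. AT2G19610, which overlaps the end of NDL3 and was too low to be tested, had 1, 0 and 0 reads in NEET5-4, while every library outside NEET5-4 held some. Beyond it, KEA4 changed by -0.35 and ACO1 by -0.85 on the log2 scale. On the other side, AT2G19660 differed by -0.25 (limma adjusted p = 0.277), and PRMT1A changed by 0.44. The DNA of the segment was not measured here.

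**Figure D2:**
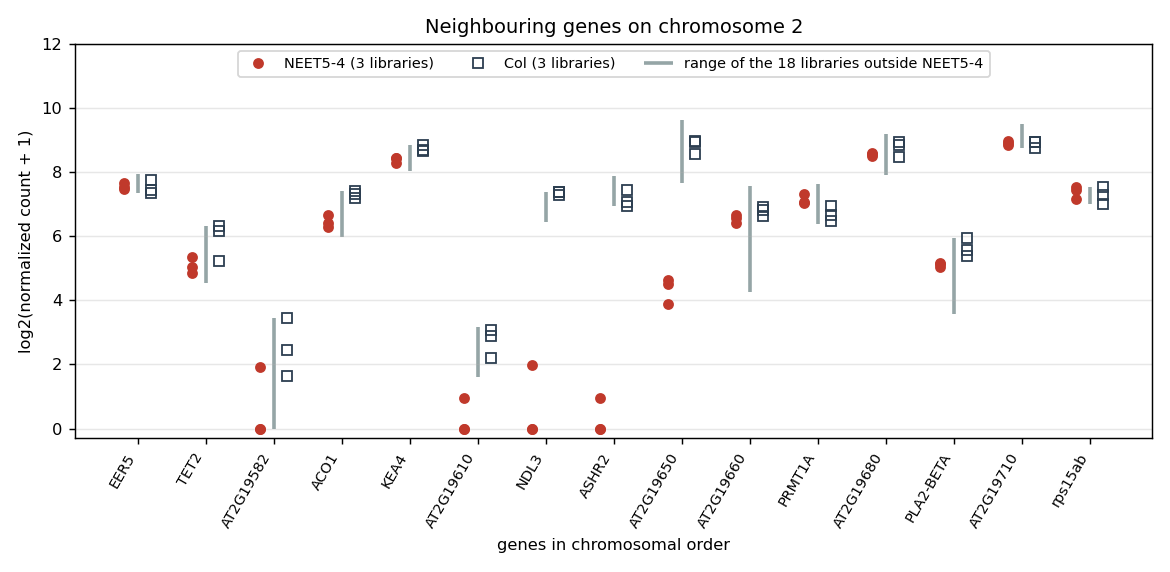
Levels of neighbouring genes on chromosome 2 as log2(normalized count + 1) in chromosomal order, with NEET5-4 libraries as filled circles, the range of the 18 libraries outside NEET5-4 as grey lines and Col as open squares. NDL3, ASHR2 and AT2G19650 lie below the whole range of the other libraries, and the nearest tested genes on either side lie within 2-fold of Col.

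The 2 other NEET lines bracket NEET5-4 in AtNEET level. AtNEET had 30642, 33997 and 33871 in NEET10-10 and 330.3, 338 and 327 in NEET11-9. NEET11-9 was near wild type, 0.40 above Col on the log2 scale (limma adjusted p = 0.0404), and Col replicate 1 at 366.5 exceeded all its libraries. Of all other groups, H89C4-7 came nearest to NEET5-4 in AtNEET level, with 16707, 16521 and 15072. NEET5-4 was thus -0.85 on the log2 scale from NEET10-10 and 5.77 from NEET11-9. Against NEET10-10, 2560 genes were higher in NEET5-4 (12.4%) and 3266 lower (15.8%), 5826 in all (28.1%), of which 151 (0.73%) and 651 (3.15%) by at least 2-fold. Against NEET11-9, 2402 were higher (11.6%) and 2932 lower (14.2%), 5334 in all (25.8%), of which 202 (0.976%) and 305 (1.47%) by at least 2-fold. These comparisons share the NEET5-4 libraries with the comparison to Col.

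All 8 wall and EXORDIUM family genes among the rises were called higher in NEET5-4 than in either of the other NEET lines. PHI-1 had 218, 179 and 164 in NEET10-10 and 48, 41 and 39.2 in NEET11-9, well under the NEET5-4 libraries. TCH4 had 3453, 2720 and 2681 in NEET10-10 and 685, 646 and 690.1 in NEET11-9, and EXO had 886, 948 and 1020 in NEET10-10 and 651, 668 and 597 in NEET11-9. Of the 15 rises, 11 were higher in NEET5-4 than in NEET10-10, 1 (AtNEET) was lower and 3 were not called (MRN1, AT4G37850 and AT3G02620), with a median log2 difference of 1.91. Against NEET11-9, 13 were higher and 2 were not called (MRN1 and AT4G37850), with a median of 2.51. MRN1 had 136, 213 and 209 in NEET10-10 and 109.8, 133 and 112 in NEET11-9, so its rise was not called different from theirs. In H89C4-7, nearest to NEET5-4 in AtNEET level, PHI-1 had 629.7, 713.9 and 648.6, between Col and NEET5-4. XTH25 averaged 132.5 there against 68 in Col, and the other wall and EXORDIUM family genes among the rises averaged below Col. AT3G23550 had 101.5, 131.3 and 96.8 in H89C4-7, above every NEET5-4 library. H89C4-7 was not tested here.

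All 15 falls were lower in NEET5-4 than in NEET10-10, with a median log2 difference of -6.58, and 14 were lower than in NEET11-9, with a median of -2.58. CYP71A12 had 2134, 1965 and 2225 in NEET10-10 and 81.5, 98 and 90.5 in NEET11-9. AT1G26380 had 635, 679 and 649.8 in NEET10-10 and 30, 42.7 and 31.8 in NEET11-9. For both genes NEET10-10 lay above the mean of Col and NEET11-9 far below it, and NEET5-4 was lower still. CYP82C2, the exception, had 0, 0 and 0.816 in NEET11-9, near the 0 reads of NEET5-4. In H89C4-7 all of the falls but ASHR2 and AT1G58320 also averaged below Col, though above NEET5-4. CYP71A12 averaged 266.5 there against 1519 in Col, and AT1G14550 averaged 30.8 against 226.8. Of the 15 rises, 10 were above all 18 other libraries of the series, and of the 15 falls, 12 were below all 18. Over all tested genes that held for 4.19% and 4.77%. The choice of the rises and falls had already set them beyond the Col libraries, which are among the 18. Their counts are thus a description and no test against these shares.

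**Figure D3:**
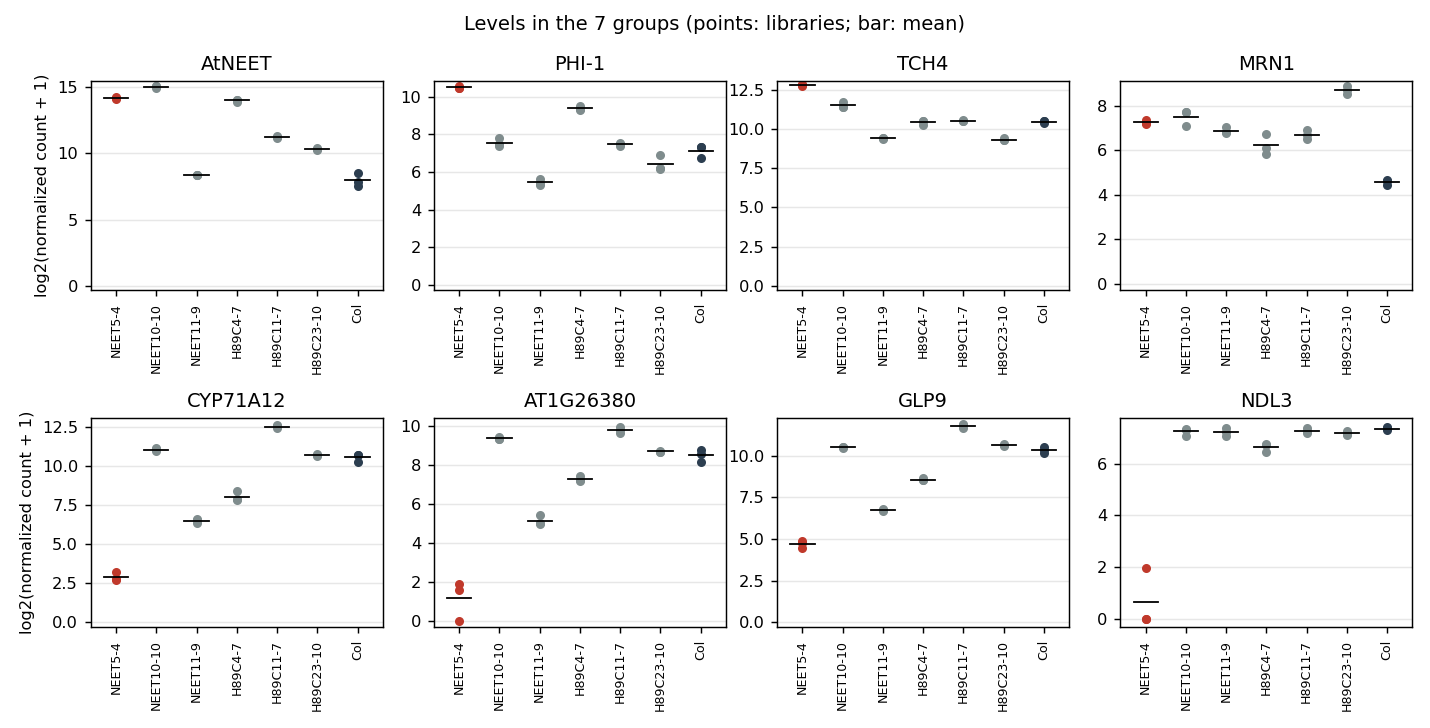
Levels of 8 named genes as log2(normalized count + 1) in the 7 groups, with points for the 3 libraries of each group and a bar for the mean. PHI-1 and TCH4 are highest in NEET5-4, CYP71A12, AT1G26380, GLP9 and NDL3 are lowest there, and MRN1 is above Col in every line.

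By the same ranking, among 5156 genes against NEET10-10 (24.9%) and 5006 against NEET11-9 (24.2%), the largest rises against NEET10-10 were PHI-1, AT1G50040 and XTH33, and those against NEET11-9 were AtNEET, PHI-1 and TCH4. The largest falls against NEET11-9 were ASHR2, NDL3 and AT2G19650. Those against NEET10-10 were AT1G26380, CYP71A12 and AT4G06715, annotated only as other RNA. AT4G06715 had 285, 268 and 268 in NEET10-10 and no read in any other group, the H89C lines and Col included. It passed the filter only through the NEET10-10 libraries, so its place in this ranking describes NEET10-10 and not a fall of NEET5-4.

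The lists that follow group 571 entries in 34 gene lists, 533 of them tested. Each count is to be read beside the share over all tested genes, 14.1% higher and 16.9% lower, with a median log2 change of 0.01. The lists are set against Col, and a change from Col need not be particular to NEET5-4. Against NEET10-10 the share over all tested genes was 12.4% higher and 15.8% lower, and against NEET11-9 it was 11.6% and 14.2%.

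**Figure D4:**
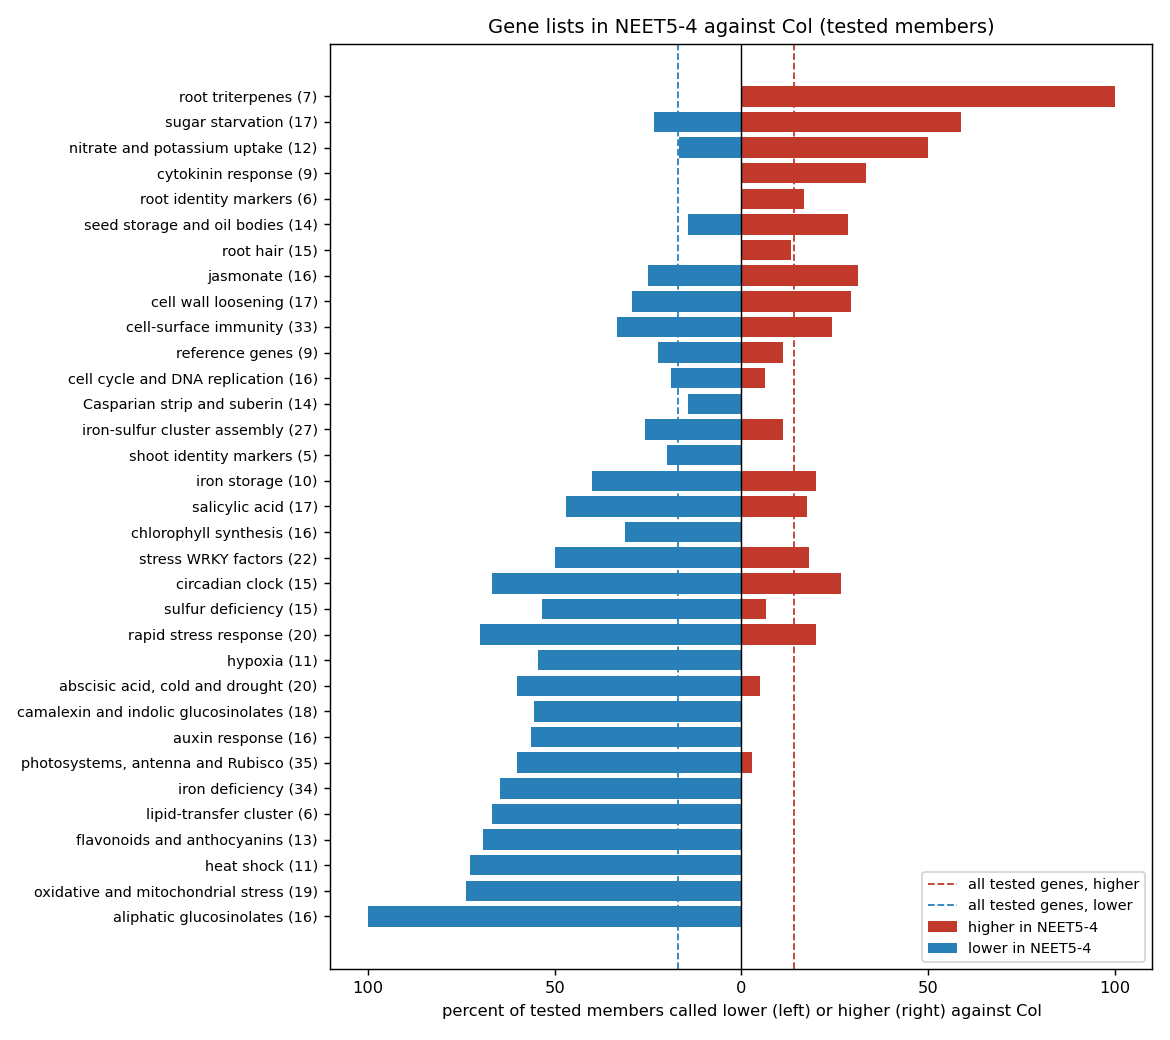
Percent of each list's tested members called lower (bars to the left) or higher (bars to the right) in NEET5-4 against Col, for lists with at least 5 tested members, with the number tested in parentheses. Dashed lines mark all tested genes, 14.1% higher and 16.9% lower. Root triterpene genes all rose and aliphatic glucosinolate genes all fell.

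Salicylic acid is the hormone of defence against biotrophic pathogens. Of 17 tested genes of its synthesis, signalling and response, 8 fell and 3 rose, with a median log2 change of -0.28. FMO1, which makes the systemic signal N-hydroxypipecolic acid, had 2.76, 2.07 and 2.96 in NEET5-4, against 129.6, 107 and 110.3 in Col, with a log2 change of -5.02 ± 0.25 (SE, limma adjusted p = 1.66e-14). PBS3, which joins isochorismate to glutamate in salicylic acid synthesis, had 21.2, 7.24 and 20.8 in NEET5-4, against 316, 315 and 292 in Col, with a log2 change of -4.28 ± 0.22 (SE, limma adjusted p = 4.57e-14). CBP60G, a transcription factor that switches on that synthesis, had 122, 132 and 118 in NEET5-4, against 1020, 950.1 and 1015 in Col, with a log2 change of -2.99 ± 0.06 (SE, limma adjusted p = 6.9e-22). ACD6, a membrane protein of defence and cell death, had 233, 248 and 225 in NEET5-4, against 474, 472 and 468 in Col. The 2 groups were apart in all 4 genes. Only 1 member rose without NEET5-4 replicate 1 or with NEET5-4 and Col fitted alone.

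Of 22 tested WRKY factors linked to stress, 11 fell and 4 rose, with a median of -0.61. Without Col replicate 1, 13 fell and 2 rose. The risers were 2 also without NEET5-4 replicate 3 and with NEET5-4 and Col fitted alone. WRKY46 had 6.45, 8.28 and 6.92 in NEET5-4, against 84, 86.8 and 80.9 in Col, with a log2 change of -3.38 ± 0.16 (SE, limma adjusted p = 3.23e-15), while WRKY33, a regulator of camalexin synthesis, had 959.9, 1007 and 1067 in NEET5-4, against 1647, 2169 and 2403 in Col, with a log2 change of -1.02 ± 0.08 (SE, limma adjusted p = 3.93e-10). WRKY40 had 144, 122 and 119 in NEET5-4, against 250.3, 282 and 238 in Col. Its close relative WRKY18 went the other way, with 343, 363 and 359.6 in NEET5-4, against 114, 98.5 and 90.7 in Col, a log2 change of 1.81 ± 0.13 (SE, limma adjusted p = 2.88e-11). The list thus held both directions, also among related factors. Against NEET10-10, 1 member was higher in NEET5-4 and 15 lower, with a median of -0.68. Against NEET11-9, 6 were higher and 4 lower, with a median of 0.03.

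The list of fast stress response genes held 20 tested members, of which 14 fell and 4 rose, with a median of -0.70. The risers included the touch genes TCH3, a calmodulin-like calcium sensor, and TCH4. TCH3 had 2793, 2570 and 2705 in NEET5-4, against 952, 922 and 961 in Col, with a log2 change of 1.51 ± 0.06 (SE, limma adjusted p = 1.65e-16). Among the fallers, MYB15, a factor of defence lignin and cold responses, had 1.84, 3.1 and 3.95 in NEET5-4, against 92.1, 122 and 95.6 in Col, with a log2 change of -4.74 ± 0.22 (SE, limma adjusted p = 4.48e-15). The zinc finger gene RHL41 had 64.5, 49.7 and 60.3 in NEET5-4, against 206, 180 and 196 in Col, with a log2 change of -1.73 ± 0.10 (SE, limma adjusted p = 6.38e-13). TCH3 and TCH4 rose in the same libraries in which most genes of the list fell.

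Cold-response factors fell as a block of neighbours. CBF1, CBF2 and DREB1A lie together at chr4:13015250-13022996 and encode the factors that switch on cold tolerance genes. DREB1A had 9.21, 8.28 and 11.9 in NEET5-4, against 81.3, 70.7 and 78.5 in Col, CBF1 had 14.7, 10.3 and 14.8 in NEET5-4, against 50.1, 57.8 and 51.5 in Col, and CBF2 had 55.3, 48.6 and 34.6 in NEET5-4, against 130.5, 107 and 139.7 in Col. Their log2 changes were -2.86 ± 0.22 (limma adjusted p = 9.54e-11), -1.93 ± 0.25 (limma adjusted p = 7.62e-07) and -1.44 ± 0.19 (limma adjusted p = 1.47e-06). The cold-regulated genes LTI78 and COR15A fell too, LTI78 with 1203, 1231 and 1260 in NEET5-4, against 2874, 3301 and 3219 in Col (limma adjusted p = 3.02e-16) and COR15A with 558, 529 and 565 in NEET5-4, against 1361, 1189 and 1233 in Col (limma adjusted p = 2.63e-12). Of 20 tested abscisic acid, cold and drought genes, 12 fell and 1 rose, with a median of -0.60. Without Col replicate 1, 14 fell and none rose, and 2 rose without NEET5-4 replicate 3, with NEET5-4 and Col fitted alone, by edgeR and by DESeq2, and none under quantile normalization. P5CS1, the key enzyme of proline synthesis, had 3562, 3634 and 3490 in NEET5-4, against 6337, 6739 and 6462 in Col, and ABI1, a phosphatase that restrains abscisic acid signalling, had 1008, 938 and 938 in NEET5-4, against 1734, 1780 and 1829 in Col, also called.

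Cell-surface immunity moved both ways, with 11 of 33 tested genes lower and 8 higher, and a median of -0.03. The marker of pattern-triggered immunity FRK1 had 8.29, 3.1 and 3.95 in NEET5-4, against 26.8, 34.3 and 41.7 in Col, with a log2 change of -2.60 ± 0.25 (SE, limma adjusted p = 4.53e-09). PROPEP3, the precursor of a danger peptide, had 24.9, 15.5 and 18.8 in NEET5-4, against 77.8, 80.3 and 115 in Col, with a log2 change of -2.15 ± 0.20 (SE, limma adjusted p = 3.98e-09). The receptor kinases FER and WAK2, which bind or sense the cell wall, were higher. FER had 9153, 9008 and 9042 in NEET5-4, against 5576, 5351 and 5217 in Col (limma adjusted p = 8.03e-14), and WAK2 had 979, 931 and 953 in NEET5-4, against 586, 676 and 593 in Col (limma adjusted p = 4.89e-09). All 6 members that changed at least 2-fold were lower.

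Camalexin and the indolic glucosinolates are sulfur-containing defence compounds made from tryptophan. Of 18 tested genes of this list, 10 fell and none rose, with a median of -0.38. Besides the genes above, CYP81F2, which modifies indolic glucosinolates, had 136, 122 and 146 in NEET5-4, against 647, 504 and 593 in Col, with a log2 change of -2.10 ± 0.08 (SE, limma adjusted p = 2.52e-16). CYP71A13, the camalexin gene beside CYP71A12, was low in both groups with 0, 2.07 and 0 in NEET5-4, against 2.68, 5.36 and 17.2 in Col, a log2 change of -2.37 ± 0.57 (limma adjusted p = 0.00201). CYP71A12 and CYP71A13 are close copies, so the split of reads between them is uncertain. CYP71A13 also overlaps AT2G30766 on the other strand, and the strand setting of the counts is not given in the sources used here.

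The aliphatic glucosinolates, made from methionine, were the list that fell without exception. All 16 tested genes were lower than in Col and the median was -0.78. Against NEET10-10, 6 were higher in NEET5-4 and 2 lower, with a median of 0.15. Against NEET11-9, 1 was higher and 13 lower, with a median of -0.61. MYB28, the main transcription factor of the pathway, had 900, 838 and 912 in NEET5-4, against 1374, 1593 and 1466 in Col, with a log2 change of -0.74 ± 0.06 (SE, limma adjusted p = 3.92e-10). CYP83A1, an enzyme of the core pathway, had 1452, 1262 and 1405 in NEET5-4, against 2803, 2792 and 2689 in Col, with a log2 change of -1.01 ± 0.06 (SE, limma adjusted p = 2.1e-12). IMD1, which lengthens the methionine chain, had 1004, 835 and 891 in NEET5-4, against 1600, 1546 and 1495 in Col, and the glucosyltransferase gene AT2G31790 had 578, 554 and 515 in NEET5-4, against 1065, 1017 and 939 in Col. The spread within each group was small beside the gap between them. In whole seedlings, fewer cells of a type and less RNA per cell cannot be told apart, here and for every list.

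In the lipid-transfer cluster of EARLI1 and AZI1, 4 of 6 tested genes fell and none rose, with a median of -1.79. AZI1, which takes part in defence priming, had 243, 279 and 222 in NEET5-4, against 381, 521 and 503 in Col, with a log2 change of -0.90 ± 0.12 (SE, limma adjusted p = 7.52e-07). EARLI1 had 76.5, 82.8 and 85 in NEET5-4, against 479, 569 and 519.7 in Col, with a log2 change of -2.67 ± 0.20 (SE, limma adjusted p = 4.28e-11). Its neighbours AT4G12490 and AT4G12500 were nearly at 0 in NEET5-4, AT4G12490 with 0.921, 1.03 and 0 in NEET5-4, against 42, 50.4 and 14.7 in Col and AT4G12500 with 0, 1.03 and 2.96 in NEET5-4, against 83.1, 61.1 and 58.8 in Col. Set against NEET10-10, NEET5-4 was lower in AT4G12490 by a log2 difference of -3.04 and in AT4G12500 by -3.59, both called, while EARLI1 at -0.49 was not called. Set against NEET11-9, the differences were -0.40 for AT4G12490, -0.37 for AT4G12500 and 0.05 for EARLI1, none called.

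Genes of iron deficiency fell and none rose. Of 34 tested, 22 were lower, 9 of them by at least 2-fold, with a median of -0.58. They are normally switched on when iron is short. AT3G13610, the enzyme that opens synthesis of the iron-mobilizing coumarin scopoletin, had 262, 236 and 232 in NEET5-4, against 1465, 792 and 1013 in Col, with a log2 change of -2.11 ± 0.12 (SE, limma adjusted p = 2.79e-13). AT2G30766 follows CYP71A12 and overlaps the end of CYP71A13 on the other strand. The annotation used here gives AT2G30766 only as an uncharacterized protein. AT2G30766 had 182, 203 and 210.4 in NEET5-4, against 809.9, 680.2 and 632 in Col, with a log2 change of -1.83 ± 0.09 (SE, limma adjusted p = 1.03e-14). PYE, a bHLH regulator of the response, had 204, 212 and 209.5 in NEET5-4, against 382, 449.9 and 439 in Col, with a log2 change of -1.01 ± 0.07 (SE, limma adjusted p = 3.91e-12). ORG1 had 2940, 3077 and 3184 in NEET5-4, against 5506, 6165 and 5761 in Col, with a log2 change of -0.92 ± 0.05 (SE, limma adjusted p = 1.33e-14). The neighbouring genes AT1G47395 and AT1G47400, both uncharacterized in the annotation, fell too, AT1G47395 with 89.4, 82.8 and 96.8 in NEET5-4, against 261, 197 and 191 in Col and AT1G47400 with 40.5, 24.8 and 24.7 in NEET5-4, against 109, 75 and 73.5 in Col. Col replicate 1 was the highest Col library for AT3G13610 and AT2G30766, and without it 21 members were lower.

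Iron storage and iron-sulfur assembly moved little. Of 10 tested storage and transport genes, 4 fell and 2 rose, with a median of -0.05. The risers were 1 without Col replicate 3 or NEET5-4 replicate 3, by edgeR, by DESeq2 or with the 2 groups fitted alone, and none without NEET5-4 replicate 1. The ferritin gene FER1 had 1894, 1796 and 1847 in NEET5-4, against 2283, 2083 and 2050 in Col, with a log2 change of -0.21 ± 0.05 (SE, limma adjusted p = 0.00166). NAS3, a nicotianamine synthase, had 10.1, 14.5 and 5.93 in NEET5-4, against 30.4, 21.4 and 29.4 in Col, with a log2 change of -1.39 ± 0.29 (SE, limma adjusted p = 0.000436). Of 27 tested genes of iron-sulfur cluster assembly, 7 fell and 3 rose, with a median of -0.05, and the falls were 4 without NEET5-4 replicate 3 and 3 with the 2 groups fitted alone. SUFE2, a plastid sulfur-transfer protein, had 105, 118 and 119.5 in NEET5-4, against 199, 219.6 and 233 in Col, with a log2 change of -0.92 ± 0.09 (SE, limma adjusted p = 1.57e-08). CXIP1, a monothiol glutaredoxin, had 1906, 1655 and 1711 in NEET5-4, against 2575, 2212 and 2393 in Col, a log2 change of -0.45 ± 0.05. INDH, which helps to assemble mitochondrial complex I, went the other way with 298, 335 and 334 in NEET5-4, against 202, 183 and 208 in Col, a log2 change of 0.70 ± 0.10 (limma adjusted p = 6.33e-06).

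The genes of photosynthesis were slightly lower. Of 35 tested photosystem, antenna and Rubisco genes, 21 fell and 1 rose, with a median of -0.24. Without Col replicate 1, 17 fell, and 12 fell with NEET5-4 and Col fitted alone. The 1 riser was lost without Col replicate 1 or 2, without any 1 of the NEET5-4 libraries and with no filter, and quantile normalization gave 3. The antenna genes CAB3 and LHCB2.3 were both lower. CAB3 had 59353, 57617 and 53110 in NEET5-4, against 88610, 76641 and 80817 in Col, and LHCB2.3 had 12472, 11760 and 11071 in NEET5-4, against 18733, 15318 and 16610 in Col. Their log2 changes were -0.53 ± 0.06 and -0.52 ± 0.06. Against NEET10-10, 28 genes of this list were higher in NEET5-4 and 0 lower, with a median of 0.31. Against NEET11-9, 0 were higher and 6 lower, with a median of -0.10. Of 16 chlorophyll synthesis genes, 5 fell and none rose, with a median of -0.18. GUN5, a subunit of magnesium chelatase, had 26925, 27558 and 27679 in NEET5-4, against 37829, 35757 and 36659 in Col, with a log2 change of -0.42 ± 0.05 (SE, limma adjusted p = 9.12e-08). Several antenna genes are near-identical copies, and their separate values are uncertain.

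Genes of sugar starvation moved mostly upward. Of 17 tested, 10 were higher than in Col and 4 lower, with a median of 0.22. Against NEET10-10, 2 were higher in NEET5-4 and 13 lower, with a median of -0.32. Against NEET11-9, 12 were higher and 5 lower, with a median of 0.44. ASN1, the dark-induced asparagine synthetase, had 14806, 14647 and 14260 in NEET5-4, against 5599, 5303 and 4866 in Col, with a log2 change of 1.47 ± 0.05 (SE, limma adjusted p = 4.84e-17). DIN10, a raffinose synthase, had 30618, 31010 and 31327 in NEET5-4, against 12169, 11731 and 11483 in Col, with a log2 change of 1.39 ± 0.05 (SE, limma adjusted p = 2.1e-17). SEN1 had 8193, 8542 and 7856 in NEET5-4, against 3856, 4316 and 3893 in Col, with a log2 change of 1.03 ± 0.05 (SE, limma adjusted p = 1.98e-14). DIN2, a beta-glucosidase, was the strongest opposite case with 73.7, 56.9 and 42.5 in NEET5-4, against 277, 294 and 341 in Col, a log2 change of -2.41 ± 0.14 (SE, limma adjusted p = 4.59e-13).

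Clock genes were mostly lower, with 10 of 15 tested members down and 4 up, and a median of -0.41. PRR9, a morning repressor, had 44.2, 34.1 and 26.7 in NEET5-4, against 239.6, 185 and 211 in Col, with a log2 change of -2.58 ± 0.15 (SE, limma adjusted p = 2.35e-13). RVE1 had 732, 782 and 752 in NEET5-4, against 1700, 1796 and 1834 in Col, and CCA1, a core morning factor, had 1495, 1629 and 1542 in NEET5-4, against 2754, 2636 and 2643 in Col. Their log2 changes were -1.23 ± 0.05 (limma adjusted p = 4.76e-17) and -0.78 ± 0.05 (limma adjusted p = 3.72e-13).

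Heat shock genes fell in 8 of 11 tested cases and rose in none (1 without Col replicate 2 or under quantile normalization), with a median of -0.87. The chaperone genes HSP70 and HSP90.1 were both lower. HSP70 had 658, 656 and 633 in NEET5-4, against 1888, 2406 and 2331 in Col, and HSP90.1 had 377, 354 and 361 in NEET5-4, against 753, 776 and 860.5 in Col. Their log2 changes were -1.76 ± 0.06 (limma adjusted p = 1.43e-17) and -1.13 ± 0.06 (limma adjusted p = 1.47e-13). Of 19 tested genes of oxidative and mitochondrial stress, 14 fell and none rose, with a median of -0.35. The alternative oxidase gene AOX1A had 619, 632 and 608 in NEET5-4, against 1144, 899.8 and 919 in Col, with a log2 change of -0.66 ± 0.07 (SE, limma adjusted p = 7.85e-09), and BCS1 had 97.7, 102 and 94.8 in NEET5-4, against 210.1, 199 and 223 in Col, with a log2 change of -1.09 ± 0.09 (SE, limma adjusted p = 5.96e-10). APX2, a stress-induced ascorbate peroxidase, had 1 read in NEET5-4 and 68 in Col, a ratio of Col over NEET5-4 of 84.7 (95% exact interval 14.7 to 3394). Of 11 hypoxia genes, 6 fell and none rose (1 without Col replicate 2), with a median of -0.40, ADH1 with 94, 99.3 and 66.2 in NEET5-4, against 171, 153 and 125 in Col (limma adjusted p = 0.00253).

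Of 13 tested flavonoid and anthocyanin genes, 9 fell and none rose, with a median of -0.75. TT5, the chalcone isomerase, had 225, 191 and 206 in NEET5-4, against 363, 349 and 333 in Col, with a log2 change of -0.75 ± 0.08 (SE, limma adjusted p = 6.2e-08), and MYBL2 had 1195, 1312 and 1248 in NEET5-4, against 2070, 2516 and 2496 in Col, with a log2 change of -0.91 ± 0.07 (SE, limma adjusted p = 2.06e-10). PAP1, the MYB activator of anthocyanin genes, was low in both groups with 1.84, 5.17 and 0.988 in NEET5-4, against 11.6, 12.8 and 27 in Col. The sulfur deficiency list had 8 of 15 tested genes lower and 1 higher, with a median of -0.28. The APS reductase genes APR1 and APR3, of sulfate assimilation, were both lower. APR1 had 534, 536 and 499.9 in NEET5-4, against 994, 1092 and 1013 in Col, and APR3 had 1243, 1196 and 1141 in NEET5-4, against 1709, 1691 and 1677 in Col. Their log2 changes were -0.98 ± 0.05 and -0.50 ± 0.05.

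Root triterpenes were the list that rose against Col without exception, with all 7 tested genes higher and a median of 0.94. Against NEET10-10, 2 of them were called higher in NEET5-4 and 0 lower, with a median of 0.19. Against NEET11-9, 3 were higher and 0 lower, with a median of 0.37. Besides MRN1, the thalianol synthase THAS1 had 934, 999.6 and 953 in NEET5-4, against 459, 472 and 584 in Col, with a log2 change of 0.94 ± 0.08 (SE, limma adjusted p = 2.66e-10), and CYP705A5, of the same cluster, had 1799, 1800 and 1806 in NEET5-4, against 684, 800.2 and 875 in Col (limma adjusted p = 1.81e-13). In nitrate and potassium uptake, 6 of 12 tested genes rose and 2 fell, with a median of 0.17. NIA1, a nitrate reductase, had 16969, 17351 and 17196 in NEET5-4, against 11885, 12689 and 12371 in Col, with a log2 change of 0.48 ± 0.05 (SE, limma adjusted p = 1.73e-08). HAK5, the high-affinity potassium transporter, went down with 63.6, 65.2 and 82 in NEET5-4, against 403, 401 and 378 in Col, a log2 change of -2.48 ± 0.22 (SE, limma adjusted p = 9.72e-10). WR3, a partner of nitrate transport, had 161, 176 and 204 in NEET5-4, against 324, 414 and 346 in Col (limma adjusted p = 7.44e-08).

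Among hormone lists, 9 of 16 tested auxin genes fell and none rose (1 without Col replicate 1 or with a pseudocount of 5), with a median of -0.29. IAA29 had 171, 150 and 162 in NEET5-4, against 465, 441 and 412 in Col, with a log2 change of -1.44 ± 0.14 (SE, limma adjusted p = 7.26e-09). The growth-promoting SAUR19 and SAUR20, neighbours on chromosome 5, fell as well, SAUR20 with 70, 69.3 and 78 in NEET5-4, against 162, 150 and 194 in Col (limma adjusted p = 2.62e-08). Of 9 cytokinin response genes, 3 rose and none fell, with a median of 0.27, and the type-A response regulator ARR6 had 352, 352 and 349 in NEET5-4, against 157, 196 and 179 in Col, with a log2 change of 0.99 ± 0.11 (SE, limma adjusted p = 3.43e-08). In the jasmonate list 5 of 16 rose and 4 fell, with a median of 0.06, and 3 rose without NEET5-4 replicate 1 or with the 2 groups fitted alone. OPR3, an enzyme of jasmonate synthesis, had 831, 809 and 778 in NEET5-4, against 612, 648 and 645 in Col, and CORI3 had 371, 425 and 432 in NEET5-4, against 575, 809.8 and 804 in Col.

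Wall genes did not all rise. Of 17 tested members, 5 rose and 5 fell, with a median of 0.05, and 3 fell without NEET5-4 replicate 2. XTH9 rose with 2839, 2833 and 2679 in NEET5-4, against 1119, 1176 and 1020 in Col, a log2 change of 1.33 ± 0.07 (SE, limma adjusted p = 1.32e-14). The expansins EXPA1 and EXPA8 fell. EXPA8 had 1479, 1593 and 1664 in NEET5-4, against 4945, 5799 and 5810 in Col, with a log2 change of -1.80 ± 0.07 (SE, limma adjusted p = 3.24e-16), and EXPA1 had 2683, 2797 and 2798 in NEET5-4, against 5878, 6639 and 6940 in Col, with a log2 change of -1.23 ± 0.06 (SE, limma adjusted p = 3.23e-15). XTH16 belongs to this list as well as to the largest rises.

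Markers of cell types and stages were looked at in the same way. PYK10, a root and hypocotyl marker, had 79290, 79264 and 80383 in NEET5-4, against 77528, 86047 and 82589 in Col (limma adjusted p = 0.6), and the summed level of the 6 root identity markers was 81792 to 82985 in NEET5-4 and 79405 to 88558 in Col, with 1 member called, GL2, a log2 change of 0.38 ± 0.10. GL2 was not called with the 2 groups fitted alone, and quantile normalization called 2 members. The 5 tested shoot identity markers summed with the rest of their list to 1921 to 2022 in NEET5-4 and 1807 to 2082 in Col, and 1 of them, STM, was lower with 53.4, 33.1 and 34.6 in NEET5-4, against 62.6, 58.9 and 76 in Col. Both organs of a seedling were thus represented. Of 15 root hair genes 2 rose, 13.3% (1 without any 1 of the NEET5-4 libraries or with no filter). Of 14 Casparian strip and suberin genes 2 fell, 14.3% (1 under most of the other settings). Both shares were near those of all tested genes, 14.1% higher and 16.9% lower. Seed storage and oil genes had 4 of 14 higher (28.6%) and 2 lower (14.3%, near the share of all tested genes), both of these at least 2-fold, with a median of 0.26, and 1 lower without Col replicate 2 or any 1 of the NEET5-4 libraries. MLS, an enzyme of the glyoxylate cycle that uses seed oil, had 627, 545 and 616 in NEET5-4, against 372, 279.6 and 360.4 in Col, with a log2 change of 0.83 ± 0.11 (SE, limma adjusted p = 1.15e-06). Of 6 flower markers 2 were tested and 1 was called lower, with a median log2 change of -0.97. This was the flower identity gene PI, which had 37.8, 33.1 and 34.6 in NEET5-4, against 118, 101 and 120.1 in Col, with a log2 change of -1.65 ± 0.15 (SE, limma adjusted p = 1.91e-09). Of 16 cell cycle genes 3 fell, 18.8% and so near the share of all tested genes, and 1 rose, 6.25% (none without Col replicate 1 or NEET5-4 replicate 1 or 2, and 2 without NEET5-4 replicate 3). TSO2, a subunit of ribonucleotide reductase, was lower with 754, 694 and 651 in NEET5-4, against 1304, 1150 and 1118 in Col. The part of these differences in the other lists was not tested.

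Of 9 tested genes often taken as stable references, 1 was called higher (11.1%) and 2 lower (22.2%), and 6 were not called, beside 14.1% higher and 16.9% lower over all tested genes. ACT2 was higher with 18882, 18109 and 17870 in NEET5-4, against 15313, 14083 and 14629 in Col, a log2 change of 0.32 ± 0.04, and GAPC1 was lower with 6835, 6481 and 6504 in NEET5-4, against 11785, 8576 and 8644 in Col, a log2 change of -0.53 ± 0.07. ACT7 was called lower by -0.24 (limma adjusted p = 0.0491) and was not called without Col replicate 1. PEX4 had 434, 486 and 495 in NEET5-4, against 478, 521 and 564 in Col and was not called. The lower calls were 1 without any 1 of the NEET5-4 libraries, and the higher calls 2 without Col replicate 2. The 9 genes spanned log2 changes of -0.53 to 0.32.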

How the data were processed

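Per the labels' protocols, total RNA was taken with TRIzol, purified on columns and built into TruSeq libraries. The deposited table holds 32833 genes in 21 libraries as a normalized signal: the authors scaled each library's gene counts by a single size factor. FastQC 0.11.7, STAR 2.4.0.1, DESeq2 1.20.0 and the TAIR10 genome are the tools and build in the submitters' processing notes. Which counter was run, with what strand setting and what rule for multiply mapped reads, is not given in the sources used here, so overlapping, antisense and near-identical genes may share reads. The spacing of low values gave the size factors back, and 100% of values became whole reads within 0.001. Totals ran from 8.24 to 24.68 M reads (median 21.16 M). Every column was used.

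The 20699 genes that reached a normalized count of 10 in 3 or more libraries were tested by limma-trend (limma 3.58.1, R 4.3.3) on log2(value + 1), with 1 mean for each of 7 groups and 14 residual degrees of freedom, adjusted by Benjamini-Hochberg. A log2 change understates that of genes with few reads. The design was set on the view that the file held normalized values only, so count tests on the recovered reads (edgeR 4.0.16, DESeq2 1.42.0) served as alternatives, beside another pseudocount, no filter, other scalings, only the compared groups, a replicate block and leaving out each library. The fits were tested on simulated data. Genes were named by rank (15 each way), by list (up to 4 members with the smallest adjusted p) and by runs of at least 3 neighbouring tested genes, all called in one direction at 2-fold. APX2 and the neighbours of the chromosome 2 run were chosen after their values were seen. The members and gene lists were chosen with earlier results of these data known. Symbols, positions and sequence come from TAIR10.1, in which 32536 genes were matched.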

Additional observations from a re-analysis of the deposited data

Results flagged for a closer look

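Several of the largest changes of NEET5-4 went opposite ways from Col in another NEET line. Each of these genes was called against Col in both lines, and the difference between the lines was tested directly in the same limma fit. The comparisons share the Col libraries, and the genes were chosen among the largest changes of NEET5-4.

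Of the 15 largest rises of NEET5-4, 6 were called lower than Col in NEET11-9, the line with AtNEET near the Col level. They were PHI-1, TCH4, EXO, EXLA1, AT1G50040 and EXL5. The wall genes XTH25, XTH33 and XTH16, with changes of 0.30, 0.30 and -0.26 in NEET11-9, were not called there. PHI-1 changed by 3.37 in NEET5-4 and by -1.69 in NEET11-9 on the log2 scale, a difference of 5.05. For TCH4 the changes were 2.35 and -1.07, a difference of 3.42, and for EXO 1.97 and -0.77, a difference of 2.74. The difference between NEET5-4 and NEET11-9 was 2.65 for EXLA1, 2.95 for AT1G50040 and 2.24 for EXL5. In each of these 6 genes all 3 NEET5-4 libraries were above all 18 others.

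Of the 15 largest falls of NEET5-4, 4 were called higher than Col in NEET10-10, the line with the most AtNEET. In that line CYP82C2 (-1.46), AT1G26390 (-0.90) and AT5G38910 (-1.14) were called lower than in Col, and the other 8 were not called. CYP71A12 changed by -7.65 in NEET5-4 and by 0.48 in NEET10-10, a difference of -8.14. AT1G26380 changed by -7.30 and 0.88, a difference of -8.18. The difference between NEET5-4 and NEET10-10 was -7.81 for AT1G26410 and -6.61 for AT1G14550. No cause of these differences was tested.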

How the results depend on the processing

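The counts of all called genes and of those at least 2-fold stayed within 1.5 times of the reported ones under every alternative run; of 952 recomputed counts for gene lists, 75 moved by more. Leaving out each library in turn gave 5246 to 6645 genes called against Col and 774 to 870 of at least 2-fold, 4714 to 5729 called against NEET10-10 and 4377 to 4487 against NEET11-9, and an AtNEET log2 change of 5.96 to 6.45. The other alternatives gave 4295 to 6504, 647 to 969, 4676 to 6100, 5044 to 6818 and 6.08 to 6.18 for the same results. By edgeR's quasi-likelihood test 6382 genes were called and by DESeq2 5945, and fitting only the compared groups gave 1829 higher genes against 2923, a move of over 1.5 times. No gene was called in opposite directions by the reported fit and an alternative. Calls that were higher made up 45.5%, against 50.4% under quantile normalization. Of 2926 recomputed values for named genes, 2870 kept direction and side of the threshold, 50 lost the call, 5 gained it and 1 reversed: PYK10, not called, changed by 0.21 under quantile normalization against -0.04, and the cause was not tested. Same-numbered libraries of NEET5-4 and Col correlated by 0.089, 0.051 and 0.019, the highest value with Col for each NEET5-4 library. From the side of Col, replicate 3 correlated slightly better, by 0.022, with NEET5-4 replicate 2. All these values were small and the order was not complete, so the numbers were not taken as pairs. A replicate block gave 6404 called genes, 812 of them at least 2-fold. Col replicate 3 had the fewest reads, 8.24 M, so 3 reads there equal a normalized count of 7.35, which limits what can be said of low genes in Col.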
